A study of Homo sapiens with 2 samples.

Results

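ZFP36, its paralogues ZFP36L1 and ZFP36L2, and PLEKHG2, the next gene on the same strand as ZFP36, were examined for peaks of tagged ERG. They are 4 of the 19974 protein-coding genes that RefSeq places on chromosomes 1 to 22 and X of GRCh38. The members were chosen from earlier results of this same peak list, in which ZFP36 and PLEKHG2 were among the genes with most peaks. Their peak counts, fold enrichments and distances to summits are therefore a description and carry no test. A peak counts for a gene here if its summit falls inside the gene or no more than 10 kb away.

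The cells were F36P, a human erythroleukaemia line. They carried MSCV-PIG-AM-ERG, a retroviral vector for ERG with an AM tag (AM-ERG; genotype label ERG overexpression), or the empty MSCV-PIG vector (Vector; genotype label WT). Both were kept in 1 µg/ml puromycin for 4 days. Immunoprecipitation used an antibody against the AM tag, so the ERG measured is the overexpressed tagged one. There was 1 library per group, and the single peak list does not name its library. No error between replicates and no test of AM-ERG against Vector could be given. The list holds 1645 peaks, of which 1564 lie on chromosomes 1 to 22 and X, 168 of them on chromosome 19. Those 1564 had a median fold enrichment of 4.66 (1.27 to 23.3), a median pileup of 21 fragments at the summit and a median local background of 3.52 fragments. Fold enrichment is the authors' value over local background. Pileup and background are fragments recovered from each peak's fold and p-value. For this, fold was taken as pileup plus 1 over background plus 1, and p as a Poisson tail. Plain pileup over background is therefore higher than the fold. Library depth was unknown.

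ZFP36, also called tristetraprolin, binds AU-rich elements of short-lived mRNAs through a pair of CCCH zinc fingers and brings in the CCR4-NOT deadenylase, so that the mRNA is degraded. ZFP36L1 and ZFP36L2 bind the same elements. In mouse, Zfp36l2 is needed for self-renewal of early erythroid progenitors, and in human progenitors ZFP36L1 has been tied to STAT5B mRNA during erythroid differentiation. PLEKHG2 is a guanine nucleotide exchange factor for the small GTPases RAC1 and CDC42, is activated by G protein beta-gamma subunits, and was first met in mouse as Clg, at a retroviral insertion site in leukaemia.

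ZFP36 and PLEKHG2 shared 3 peaks, and the paralogues ZFP36L1 and ZFP36L2 had none. ZFP36 (gene 7538; chromosome 19, 39406847 to 39409407) is 2561 bp long. PLEKHG2 (gene 64857; chromosome 19, 39412669 to 39428415) starts after an interval of 3261 bp. Both are read towards higher coordinates. All 3 peaks lay within 10 kb of each gene, so the same peaks gave each gene its count of 3. Over all protein-coding genes 9.58% had at least 1 peak by this measure and 0.0701%, or 14 genes, had at least 3. On chromosome 19 these shares were 15.9% and 0.551% of 1451 genes. These shares come from the contrast that chose the members, and nothing is read from the members' count against them.

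The strongest peak was at the start of PLEKHG2. It ran from 39412506 to 39412881 and its summit, at 39412707, lay 38 bp downstream of the annotated start of PLEKHG2. ZFP36 has this summit 3300 bp beyond its far end and 5860 bp downstream of its own start. The fold enrichment was 11.2 at 81 fragments of pileup (95% exact Poisson interval 64.3 to 101, counting error only) on a background of 6.34 fragments and a −log10 q of 53.4. By fold it ranked 20 among the 1564 peaks, and by significance 9. Summits inside a promoter window (defined with the sequences that follow) belonged to 321 peaks of median fold 4.92, and by fold the PLEKHG2 peak ranked 9 among them. Among the 62 peaks whose background was within 10% of its own it had the highest fold, where the median was 4.16.

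The sequence there and at the starts of ZFP36 and ZFP36L1 is shown because the strongest peak covers most of the first of these windows and no listed peak touches the others. Each window runs from 250 bases before to 50 bases after a start annotated by RefSeq (GRCh38.p14), 5′ to 3′ on the gene's strand. Capitals mark CGGAAG or AGGAAG on either strand, forms of the site bound by ETS factors such as ERG. Only these are named the ETS core here. Stretches of GGAA outside these forms are neither marked nor counted. The windows are chr19:39412419-39412718 (plus strand) for PLEKHG2, chr19:39406597-39406896 (plus strand) for ZFP36, and chr14:68796194-68796493 and chr14:68793367-68793666 (minus strand) for the starts of ZFP36L1.
PLEKHG2: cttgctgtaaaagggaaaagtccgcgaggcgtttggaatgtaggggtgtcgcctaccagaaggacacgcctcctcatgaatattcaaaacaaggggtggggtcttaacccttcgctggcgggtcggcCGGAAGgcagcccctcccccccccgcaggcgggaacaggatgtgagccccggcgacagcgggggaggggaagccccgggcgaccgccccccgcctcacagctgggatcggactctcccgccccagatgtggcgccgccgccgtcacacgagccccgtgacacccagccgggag
ZFP36: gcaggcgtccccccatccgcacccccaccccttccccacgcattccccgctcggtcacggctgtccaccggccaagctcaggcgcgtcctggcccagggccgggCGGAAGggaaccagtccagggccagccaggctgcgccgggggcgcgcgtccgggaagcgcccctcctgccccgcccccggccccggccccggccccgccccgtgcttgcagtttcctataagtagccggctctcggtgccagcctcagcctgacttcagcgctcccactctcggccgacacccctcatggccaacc
ZFP36L1, upstream start: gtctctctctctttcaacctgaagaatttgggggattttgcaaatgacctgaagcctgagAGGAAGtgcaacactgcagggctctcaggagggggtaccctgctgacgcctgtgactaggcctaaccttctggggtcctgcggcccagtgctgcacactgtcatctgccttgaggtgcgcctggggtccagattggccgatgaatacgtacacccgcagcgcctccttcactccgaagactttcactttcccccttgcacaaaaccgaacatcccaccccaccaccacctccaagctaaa
ZFP36L1, downstream start: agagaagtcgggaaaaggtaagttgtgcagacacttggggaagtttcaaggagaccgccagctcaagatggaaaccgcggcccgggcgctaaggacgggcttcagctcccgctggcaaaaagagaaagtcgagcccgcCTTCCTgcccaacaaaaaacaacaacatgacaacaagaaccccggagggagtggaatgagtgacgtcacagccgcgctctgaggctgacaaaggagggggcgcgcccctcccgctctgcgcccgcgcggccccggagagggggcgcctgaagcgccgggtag

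Each of these 4 windows held 1 match to the ETS core as defined here, whether or not a peak was there. In PLEKHG2 the match began 123 bp upstream of the start, inside the peak, with its middle 158.5 bp from the summit. In ZFP36 it began 146 bp upstream. ZFP36L1 had matches beginning 190 bp upstream of its upstream start and 112 bp upstream of its downstream start. The second annotated start of PLEKHG2, whose window is chr19:39413529-39413828, had no match and no peak. The peak covered 213 of the 300 bases of the first PLEKHG2 window, including the summit at base 289. Its remaining bases were not searched here. Of 22140 such windows of 15813 protein-coding genes, 374 (1.69%) had a summit inside, and the ETS core was in 318 of those 374 (85.0%), against 49.7% of all windows. PLEKHG2 is thus among the many windows that have both, and ZFP36 and ZFP36L1 among those with the letters and no summit. The windows with a summit were also richer in G and C, with a median of 68.7% against 62.3% over all windows, and the part of base composition in these shares was not tested. A match is a description of letters and not a binding site.

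Other motifs searched on both strands were shared unevenly among the windows. The GC box, GGGCGG, had 2 matches in the first PLEKHG2 window and 3 in that of ZFP36, of which 1 overlapped the ETS core match, and there was none in either ZFP36L1 window. It was present in 77% of the windows with a summit and in 56.3% of all windows. The E-box, CANNTG, which is bound by basic helix-loop-helix factors, had 2 matches in the first PLEKHG2 window, 1 of them across the start itself, and none in ZFP36. In ZFP36L1 it had 2 in the upstream and 1 in the downstream window, and it was in 57.5% of the windows with a summit and 65.1% of all windows. None of the 5 windows of the members had a match to the other motifs. These were AGATAA, bound by erythroid GATA factors and present in 3.74% of the windows with a summit and 7.88% of all windows, TGTGGT of the RUNX factors in 8.29% and 11.3%, TGANTCA of AP-1 in 1.34% and 6.16%, TTCNNNGAA of the STAT factors in 8.29% and 6.79%, and the longer ETS site CCGGAAGT in 29.9% and 5.35%. The first PLEKHG2 window thus had a summit without the longer ETS site. ZFP36L2 has no entry in the table of starts.

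The peak upstream of ZFP36 was next in strength. It ran from 39402588 to 39403060, with its summit at 39402827, 4020 bp upstream of the start of ZFP36 and 2186 bp beyond the far end of MED29, which encodes a Mediator subunit and is read in the same direction. It lay between annotated genes. The fold was 6.41 at 37 fragments of pileup (95% exact Poisson interval 26.1 to 51.0) on a background of 4.93 fragments, and a −log10 q of 15.5. It ranked 273 by fold and 164 by significance among the 1564 peaks. Against PLEKHG2 its summit was 9842 bp upstream of the start, just inside the window of 10 kb. The first peak outside that window was 17.4 kb beyond the far end of PLEKHG2.

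The third peak lay between ZFP36 and PLEKHG2 and was weak. It ran from 39409745 to 39410311, and its summit at 39410157 was 750 bp beyond the far end of ZFP36 and 2512 bp upstream of the start of PLEKHG2. The fold was 2.99 at 23 fragments of pileup (95% exact Poisson interval 14.6 to 34.5) on a background of 7.04 fragments and a −log10 q of 2.67. Only 8.76% of the 1564 peaks had a lower fold.

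Small RNA genes lie in the same interval. MIR4530, a microRNA gene on the minus strand (39409623 to 39409678), ended 67 bp before the edge of the weak peak, whose summit was 479 bp from it. TRI-TAT1-1, an isoleucine tRNA gene (39412168 to 39412260), lay between the weak peak and the PLEKHG2 peak, 246 bp from the nearer edge of the PLEKHG2 peak and 447 bp from its summit. Neither gene was covered by a peak. The body of ZFP36 was not covered either: its 3 summits were 750, 3300 and 4020 bp away, and the nearest to the start of ZFP36 was 3310 bp downstream of it.

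Within the locus the folds differed more than the backgrounds. The fold at the PLEKHG2 start was 1.74 times that of the peak upstream of ZFP36 and 3.74 times that of the peak between the genes. Its background was 1.29 and 0.90 times theirs. The backgrounds are of few fragments and were given no interval, and the differences between them were not tested. All 3 backgrounds were above the median of 3.52 fragments, being 1.8 times the median at the PLEKHG2 start, 1.4 times upstream of ZFP36 and 2 times between the genes. On a higher background a peak of lower fold can reach significance, and the part of the background in the count of 3 was not tested. Among peaks with backgrounds within 10% of its own, the peak upstream of ZFP36 ranked 16 of 132 by fold, with a median there of 4.22, and the peak between the genes ranked 50 of 60, with a median of 3.89.

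**Figure D1:**
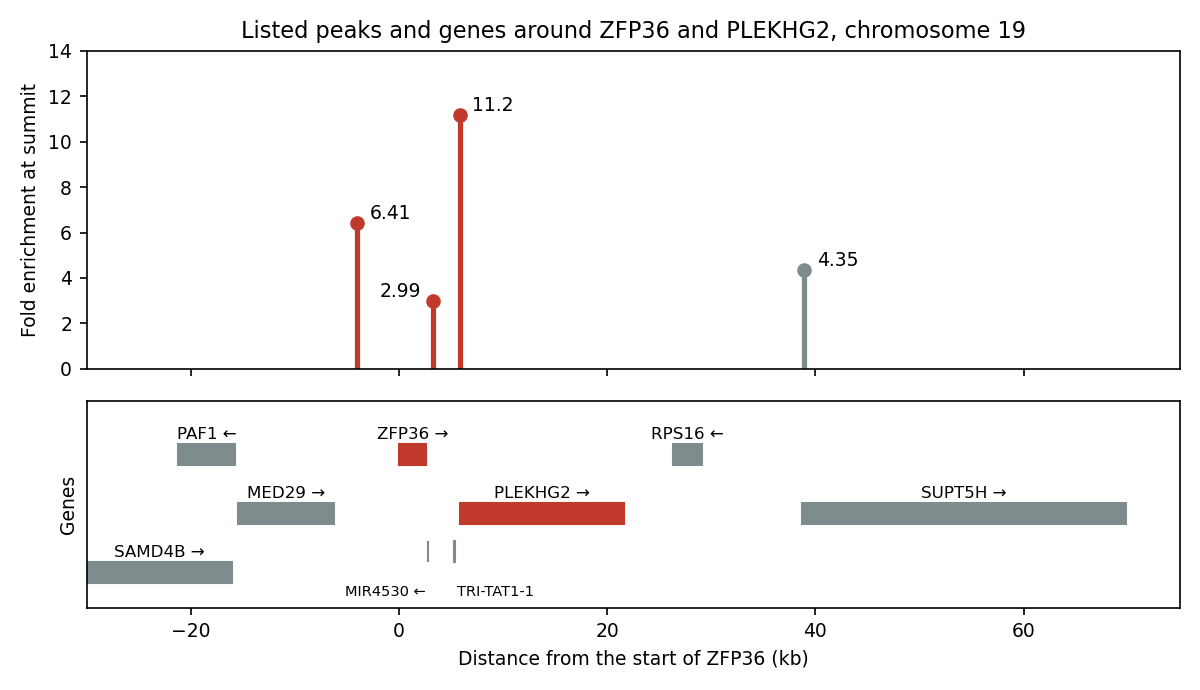
Fold enrichment at the summit of each listed peak (upper panel, vertical lines) and the annotated genes (lower panel; arrows give the direction of reading where known) against distance from the start of ZFP36 in kb. Peaks and genes in red are those of ZFP36 and PLEKHG2. The highest line, 11.2, stands at the start of PLEKHG2, the lines of 6.41 and 2.99 flank ZFP36, and no summit falls in the body of ZFP36.

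Among the neighbours, MED29 had 2 peaks within 10 kb, both shared with ZFP36, namely the peak upstream of ZFP36 and the peak between the genes. SUPT5H, which encodes the transcription elongation factor SPT5, had a peak of 4.35 fold, with 20 fragments at the summit, 155 bp downstream of its nearest annotated start. Its summit was 33.1 kb from that of PLEKHG2. RPS16, a ribosomal protein gene, lies between PLEKHG2 and SUPT5H and reached the same peak at a distance of 9850 bp. PAF1 and SAMD4B, on the other side of MED29, had summits no nearer than 11721 and 12063 bp among those of the locus.

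**Figure D2:**
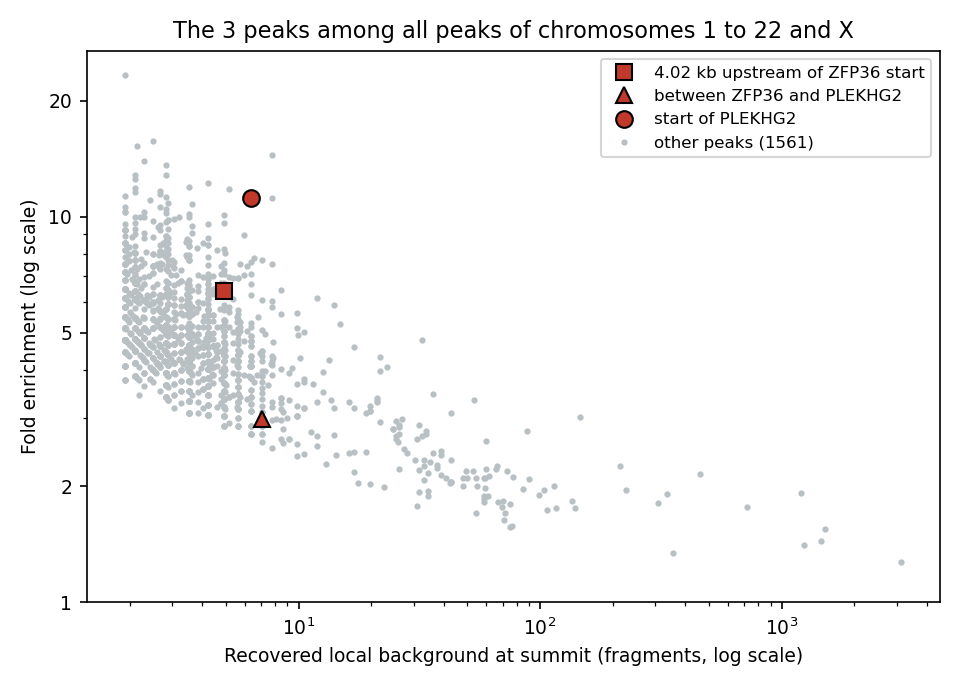
Fold enrichment against the recovered local background in fragments for the 1564 peaks of chromosomes 1 to 22 and X, both on log scales. Grey points are the other 1561 peaks. The circle, the PLEKHG2 start, lies at the upper edge of the cloud for its background, the square, upstream of ZFP36, in its upper part, and the triangle, between the genes, near its lower edge.

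Peaks were then chained wherever consecutive summits on a chromosome lay under 10 kb apart, to see how often they lie as close as here. The 1564 peaks formed 1434 chains, of which 1370 were single peaks, 54 were pairs and 10 held 3 or more. The 3 peaks of ZFP36 and PLEKHG2 spanned 9880 bp, with steps of 7330 and 2550 bp. Their highest fold, 11.2, was the highest of the 10 chains. The chains next to it in highest fold were a chain of 3 on chromosome 17 (7.80) and that of HES1, a Notch target, on chromosome 3 (6.51). HES1 was the only other of the 10 with a protein-coding gene within 10 kb. The median background of the ZFP36 and PLEKHG2 chain was 6.34 fragments, and 2 of the 10 chains had a lower one. These 3 chains alone had a median background under 2 times that of the median peak. The others reached 1507 fragments, and the part of background in the ranking by fold was not tested.

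Among the 14 protein-coding genes with at least 3 peaks, ZFP36 and PLEKHG2 shared the highest peak by fold, that at the start of PLEKHG2. Of the genes with at least 3 peaks that share no peak with them, PITPNM2, TUBA4B and TGFB1 were nearest in highest fold. PITPNM2, a phosphatidylinositol transfer protein gene of 168369 bp, had 4 peaks of 7.94, 5.65, 4.79 and 4.49 fold, of which 2 had summits inside the gene. Its peaks of 5.65 and 4.49 fold lay outside it, within 175 bp of the starts of other genes. TUBA4B, an alpha-tubulin gene, had peaks of 7.71, 5.55 and 4.19 fold, the last 22 bp downstream of its start. The peaks of 7.71 and 5.55 fold lay 7383 and 7667 bp outside TUBA4B, nearest to the starts of other genes. TGFB1, which encodes the cytokine TGF-beta 1, had peaks of 6.97, 4.36 and 3.90 fold, of which the middle one was 53 bp upstream of its start. The peak of 6.97 fold lay 2725 bp outside TGFB1.

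Neither paralogue of ZFP36 had a summit within 10 kb, and only ZFP36L2 was farther from a summit than most genes. For ZFP36L1 (gene 677; chromosome 14, 68787655 to 68796243, minus strand) the nearest summit was 182 kb away, at 68978615. That peak, of 3.54 fold and 20 fragments, lay 346 bp upstream of the start of ACTN1, which encodes the actin-crosslinking protein alpha-actinin 1. On the other side the next summit left an interval of 4.06 Mb between the flanking peaks, with 22 protein-coding genes wholly inside it. For ZFP36L2 (gene 678; chromosome 2, 43222402 to 43226606) the nearest summit was 4.62 Mb away, in a peak of 4.94 fold 152 bp downstream of the start of HNRNPLL, an RNA-binding protein gene. The flanking peaks left 9.51 Mb without a listed summit, with 52 protein-coding genes wholly inside. That interval ranked 68 of the 1541 between neighbouring summits, whose median was 477 kb.

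Set against all genes, the 4 members spread over most of the range. The distance from a gene to its nearest summit had a median of 412 kb over the 19974 genes, and 129 kb on chromosome 19, 398 kb on chromosome 14 and 378 kb on chromosome 2. PLEKHG2 held a summit, ZFP36 was 750 bp from one, and 92.9% of genes were farther than ZFP36. PLEKHG2 and ZFP36 were chosen for their peaks in this list. Their short distances follow from that choice, and nothing is read from them. ZFP36L1 was nearer than 66.1% of genes. Only 1540 genes, or 7.71%, were farther from a summit than ZFP36L2. Within 250 kb of the gene ZFP36 and PLEKHG2 each had 5 summits, ZFP36L1 had 1 and ZFP36L2 had none. ZFP36 is the shortest of the 4, and of the 2506 genes between 0.5 and 2 times its length 7.18% had at least 1 peak.

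**Figure D3:**
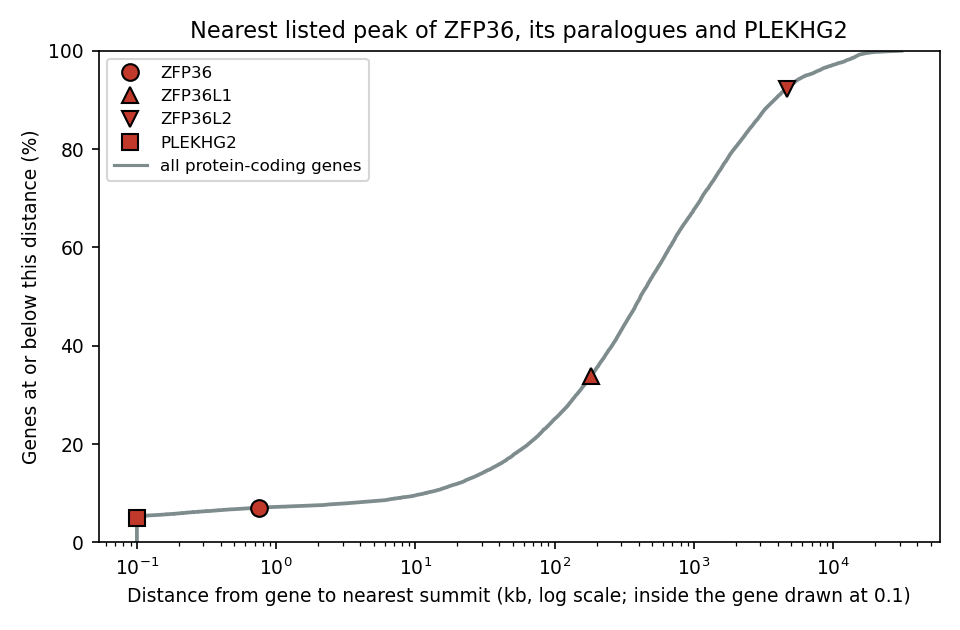
Share of the 19974 protein-coding genes (percent, vertical axis) whose nearest summit lies at or below a distance in kb (log scale; a summit inside the gene is drawn at 0.1 kb). Red symbols place the 4 members on the grey curve. PLEKHG2 and ZFP36, chosen for their peaks in this list, stand at its lower end. ZFP36L1 stands on its rise at 182 kb, and ZFP36L2 near its top at 4.62 Mb.

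That no peak was listed at ZFP36L1 and ZFP36L2 says only that none passed the authors' threshold at this depth. Of the 803 peaks with a background up to the median of 3.52 fragments, the lowest pileup was 10 fragments and the lowest fold 3.10. No weaker enrichment was listed at such backgrounds. The background at the paralogues was not measured, since it was recovered at summits only.

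Other genes of ZFP36 function, and exchange factor genes related to PLEKHG2, were counted in 9 lists, beside the 9.58% of all protein-coding genes with a peak. No list was tested. Numbers in brackets after a gene are the fold enrichment of its highest peak. Apart from the members, 24 of the 194 listed genes had a peak, or 12.4% (8.46 to 17.7% by a 95% Wilson interval, which covers counting error only). Their highest folds ran from 3.22 to 7.63, with a median of 5.29, so none reached that of the PLEKHG2 start. A start was available here for 19 of the 24, those on chromosome 8 not being used. In 16 of these 19 (84.2%) the highest peak lay within 1 kb of the gene's own start. Among all protein-coding genes with a peak and an available start, the same held for 978 of 1564 (62.5%).

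Among CCCH zinc finger genes other than the members, 4 of 22 had a peak (18.2%). They were RBM22, a splicing factor gene (6.85), ZC3H18, of nuclear RNA decay (6.19), ZC3H12C, of the regnase family (5.24), and ZC3HAV1, which encodes the antiviral protein ZAP (4.997), each within 370 bp of the gene's start. The CCR4-NOT and deadenylation list, the machinery that ZFP36 proteins bring to mRNAs, had 1 of 20, at CNOT11, a CCR4-NOT subunit gene (4.62). Decapping and decay genes had 4 of 21: the LSM ring genes LSM1 (5.14), LSM5 (4.45) and LSM4 (3.95), and PATL1, which encodes a decapping cofactor (3.32). The LSM5 peak was 429 bp upstream of its start and nearer to the start of another gene. The LSM4 peak lay 2439 bp outside the gene. A second LSM4 peak, of 3.94 fold and inside the gene, had a background of 9.15 fragments. Exosome genes had 1 of 16, at EXOSC4 (7.63, on a background of 6.34 fragments). Other AU-rich element binding proteins had 3 of 16, namely PCBP1 (6.33), NCL, which encodes nucleolin (5.99), and TIAL1 (3.36). PCBP1 had its peak 581 bp upstream of its start and 121 bp downstream of that of ASPRV1.

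Genes that control ZFP36 proteins by phosphorylation had a peak in 6 of 21 (28.6%, 95% Wilson interval 13.8 to 49.96%). They were PPP2R1A, the scaffold subunit of the phosphatase PP2A (6.29), MAPKAPK3, a kinase downstream of p38 (6.20), the kinases MAP3K5 (5.48) and MAP3K7 (3.54), and the 14-3-3 genes YWHAB (5.34) and YWHAZ (3.22). Of these 6 genes 3 had a peak among the upper 50% of peaks by q. The MAP3K5 peak was 6277 bp from the gene and nearer to the start of MAP7, and the YWHAZ peak had a background of 9.86 fragments. The 24 known mRNA targets of ZFP36 proteins, among them TNF, CSF2, IL3, VEGFA and STAT5B, had none. A count of 0 of 24 allows a share of up to 12.5% by a limit of 3 counts, and the 95% Wilson interval reaches 13.8%, both for counting error only.

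ZFP36 belongs to the immediate early genes, which are switched on within minutes of a stimulus. Apart from the ZFP36 family 3 of 31 had a peak (9.68%): NR4A2, an orphan nuclear receptor gene (5.43), IER2 (5.04) and FOSL1, an AP-1 subunit gene (4.98). The NR4A2 and IER2 peaks were 1343 and 9590 bp outside the gene. In the list of PLEKHG and related exchange factors 2 of 29 besides PLEKHG2 had a peak (6.90%). They were ARHGEF1, another exchange factor gene (7.44, 133 bp downstream of its start), and ECT2, an exchange factor of cell division (5.46, 169 bp downstream). None of the other 7 PLEKHG genes had one.

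**Figure D4:**
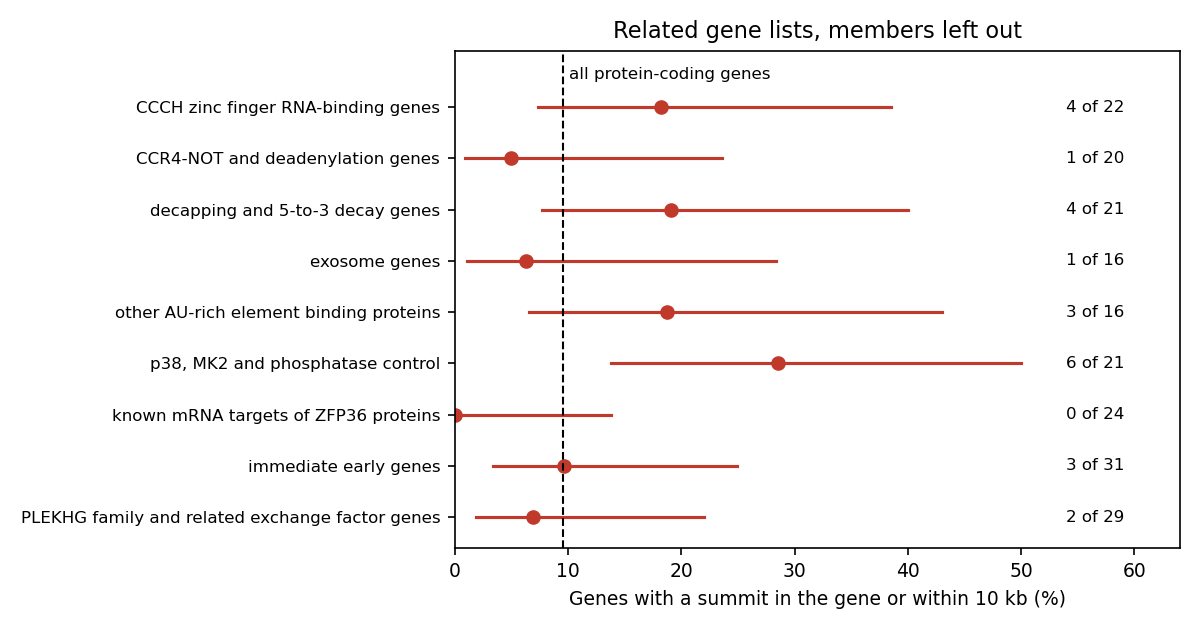
Share of genes with a peak by the 10 kb measure (percent, horizontal axis) in each of 9 lists with the members left out. Points are the shares, lines their 95% Wilson intervals (counting error only), and the dashed line the 9.58% of all protein-coding genes. The shares run from 0 of 24 in the mRNA targets to 6 of 21 in the p38, MK2 and phosphatase list, and the intervals are wide because the lists are short. The lists were not tested against the dashed line.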

How the data were processed

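AM-tag chromatin immunoprecipitation and sequencing was made from 1 AM-ERG and 1 Vector culture of F36P. Per the labels' protocols, cells were fixed in 1% formaldehyde and chromatin was cut with micrococcal nuclease for 20 minutes. Per the submitters' processing notes the tools were Bowtie2, MACS2 and deepTools and the build hg38. The sources used here give no versions or settings and do not say whether a control was used.

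The deposited narrow-peak list gives, per peak, a score, a fold (ratio) over local background, and the −log10 of p and q, all the authors' own values and used only to describe peaks within the list. The largest q was 0.0474. Pileup and background were recovered from fold and p, which returned p within 0.001 in log10 for all 1645 peaks. The recovery was right for 300 of 300 peaks simulated by the same relation, with backgrounds short of the highest listed. That checks its arithmetic and not whether the deposited values follow the relation. The rule of summit distance was right for 200 of 200 genes with planted summits, and the counting over all genes was not checked there.

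Genes and starts came from RefSeq tables of GRCh38.p14. Starts on chromosome 8 were not used here. Pileup intervals are exact Poisson and those of shares Wilson, at 95%. No hypothesis test was run. Named genes were the members, every gene within 10 kb of the locus and every gene of the lists given here with a peak. The 3 genes with at least 3 peaks that were nearest in highest fold were named too. Outside this rule, and chosen after their values were seen, SAMD4B, PAF1, RPS16, SUPT5H, HES1, ACTN1, HNRNPLL, ASPRV1 and MAP7 were named to place a peak or chain, and TNF, CSF2, IL3, VEGFA and STAT5B as examples of a list without a peak. One further gene list is not reported here. The members and lists were chosen with earlier results of these data known. Alternatives changed the window, the threshold, the assignment and the chaining distance. Peaks on other sequences were left out. Software was SciPy 1.17.1, numpy 2.4.6 and pandas 2.3.3 under Python 3.11.15, with plots by matplotlib 3.10.9.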

Additional observations from a re-analysis of the deposited data

How the results depend on the processing

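No paired analysis was possible because there is 1 library per arm and no test was run. ZFP36L1 and ZFP36L2 had 0 peaks under all 7 alternatives, as their distances to the nearest summit, 182 kb and 4.62 Mb, made certain. A list without a peak cannot tell weak binding from none at this depth, and without replicates no count has an error between libraries. With a summit required inside the gene, ZFP36 had 0 peaks and PLEKHG2 had 1, 999 genes had at least 1 peak and 1 gene had at least 3. When each peak went only to its nearest protein-coding gene, ZFP36 kept 1 peak, the weak one of 2.99 fold. PLEKHG2 kept 1, of 11.2 fold, the peak of 6.41 fold went to MED29, and 4 genes had at least 3. The lower counts under these 2 settings follow from how the settings are built. A 5 kb window left ZFP36 with 3 peaks and PLEKHG2 with 2, and 7 genes with at least 3. A 20 kb window gave ZFP36 3 and PLEKHG2 4, and 38 genes with at least 3. It also raised the lists of other AU-rich element binding proteins to 5 genes, mRNA targets to 1 and immediate early genes to 7. Keeping the upper 50% of peaks by q (782 peaks) left the locus with 2 peaks, since the peak between ZFP36 and PLEKHG2 is dropped, 999 genes with at least 1 peak and 4 with at least 3. In the lists it left 0 CCR4-NOT and deadenylation genes, 1 decapping and decay gene, 3 genes of phosphorylation control and 2 immediate early genes. With q below 0.01, or with any overlap counted in place of the summit, ZFP36 and PLEKHG2 had 3 peaks each. The chain held 2 peaks with a 5 kb step and 3 with a 20 kb step.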
